A study of Mus musculus with 4 samples.

Results

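The genes described here encode GATA transcription factors and proteins that act with them: Gata1, Gata2, Gata3, Gata4 and Gata6, the FOG cofactor genes Zfpm1 and Zfpm2, the LIM-only gene Lmo4, and the NuRD subunit genes Gatad2a and Gatad2b. These 10 genes, of 21631 protein-coding genes on the chromosomes that hold a summit, were chosen by function and by summits seen near some of them in the same peak list, so their summits are given as a description with no test. GATA2 occupancy had been measured by CUT&Tag, in which an antibody on chromatin guides a Tn5 transposase that cuts and tags the DNA around it. The cells were BVSC+ germ cells, purified from E13.5 ovaries of fetuses whose fathers carried the reporters Blimp1-mVenus and Stella-ECFP and whose mothers were C57BL/6J. The anti-GATA2 group had 2 libraries and the input group, with no antibody, had 2. The groups shared genotype, age, cell type and trypsin digestion, the labels give no number of pooled animals, and both reporters mark germ cells through regulatory DNA of Prdm1 and Dppa3.

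GATA factors are zinc finger proteins that recognise the short DNA word GATA, usually with A or T before it and A or G after it. FOG proteins do not bind this word themselves but attach to a zinc finger of a GATA factor and bring in corepressors. GATA1, GATA2 and GATA3 are best known from blood cells and GATA4 and GATA6 from heart, gut and the somatic cells of the gonad. GATA2 is also known from germ cells of the fetal ovary. LMO4 is an adaptor that joins transcription factors through LIM domains, and the GATAD2 proteins carry a GATA-type zinc finger but serve as subunits of the NuRD chromatin remodelling and deacetylase complex.

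A single list of peaks was analysed, taken to be pooled over both anti-GATA2 libraries, so no value has a spread between replicates. It held 995 summits in 945 intervals. For each summit the list gives a −log10 q and the fold enrichment over local background, taken to be computed with 1 added to signal and background. Whole numbers of GATA2 fragments were inferred from the fold and p together. The median summit had a fold of 4.15 (quartiles 3.44 and 5.22) on 9 fragments, and 674 summits (67.7%) had a q of at most 0.05. Where the control background stood at its genome-wide level, 1 fragment was worth 0.356 of fold, so neighbouring fold values often differed by a single fragment. Occupancy says nothing of expression, and the labelled cell type could not be checked by the level of its markers.

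Sequence was at hand only around annotated start sites (RefSeq, GRCm38.p6), and intervals near the 10 genes overlapped 3 such windows, 1 of Gatad2a, 1 of Zfpm1 and 1 of the noncoding gene Gm39269 beside it. They are shown because no other part of these intervals could be read. Inside an interval lay 231 bases of the Gatad2a window, 102 of the Zfpm1 window and all 300 of the Gm39269 window. The lines therefore also hold bases outside the intervals. The Zfpm1 and Gm39269 windows share 77 bases, read from opposite strands. Capitals mark the words AGATAA or AGATAG or TGATAA or TGATAG and their reverse complements, and each line runs 5′ to 3′ on the strand of its gene. The Gatad2a line is the 250 bases before its start at 69996384 (chr8:69996385-69996634, minus strand). The Zfpm1 line is the 250 bases before its start at 122282141 (chr8:122281891-122282140, plus strand). The Gm39269 line covers 250 bases before and 50 from its start at 122281717 (chr8:122281668-122281967, minus strand).
Gatad2a: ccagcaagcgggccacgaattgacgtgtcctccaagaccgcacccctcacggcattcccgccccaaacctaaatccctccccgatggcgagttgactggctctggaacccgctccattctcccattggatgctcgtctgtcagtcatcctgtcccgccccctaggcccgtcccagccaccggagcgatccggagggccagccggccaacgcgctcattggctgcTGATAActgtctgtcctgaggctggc
Zfpm1: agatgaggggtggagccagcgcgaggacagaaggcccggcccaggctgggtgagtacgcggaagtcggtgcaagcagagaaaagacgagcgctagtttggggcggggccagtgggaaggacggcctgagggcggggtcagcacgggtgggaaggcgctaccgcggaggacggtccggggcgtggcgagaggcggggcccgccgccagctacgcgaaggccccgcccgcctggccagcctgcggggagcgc
Gm39269: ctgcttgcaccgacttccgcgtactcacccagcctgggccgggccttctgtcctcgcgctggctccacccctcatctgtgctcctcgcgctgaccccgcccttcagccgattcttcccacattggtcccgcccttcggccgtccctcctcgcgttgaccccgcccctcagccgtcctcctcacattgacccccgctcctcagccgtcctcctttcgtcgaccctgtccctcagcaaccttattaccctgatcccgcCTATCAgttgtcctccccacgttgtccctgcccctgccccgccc

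In the Gatad2a window the word TGATAA lay 26 to 21 bases before the start, at 69996405 to 69996410, inside the interval and 56 bp from the summit. The Zfpm1 window held none of the words, and 102 of its bases lay inside an interval. The Gm39269 window lay wholly inside that interval and held CTATCA, which reads as TGATAG on the other strand, at 122281706 to 122281711, which is 47 bp from the nearer Zfpm1 summit. Across the 7 members with an entry, 12 start windows of 300 bases were searched on both strands, and 3 (25%) held a word: 1 each of Gatad2a, Gata3 and Gatad2b. Among 21045 windows of protein-coding genes the share was 25.8%, and among the 205 of these windows that contained a summit it was 29.3%. With GATAA on either strand as the only word, the shares were 16.7% of the member windows, 22.5% and 22.0%. The higher share in windows with a summit therefore depended on the words chosen. These are matches of letters in short windows, and a match is not a binding site.

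GATA2 summits lay inside or within 100 kb of 4 of the 10 genes, Zfpm1, Gata2, Lmo4 and Gatad2a. The same held for 14.9% of all protein-coding genes, and for 10.2% when only summits with a q of at most 0.05 were used, which left the same 4 members. A member was the nearest protein-coding gene for 8 of the 10 summits. Of the 10 members, 4 (40%) were nearest to at least 1 summit within 100 kb, against 3.86% of all protein-coding genes. Since the genes were chosen with these summits known, nothing is read from the difference. The 10 summits fell in 8 intervals, and 8 of the 10 summits passed a q of 0.05.

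**Figure D1:**
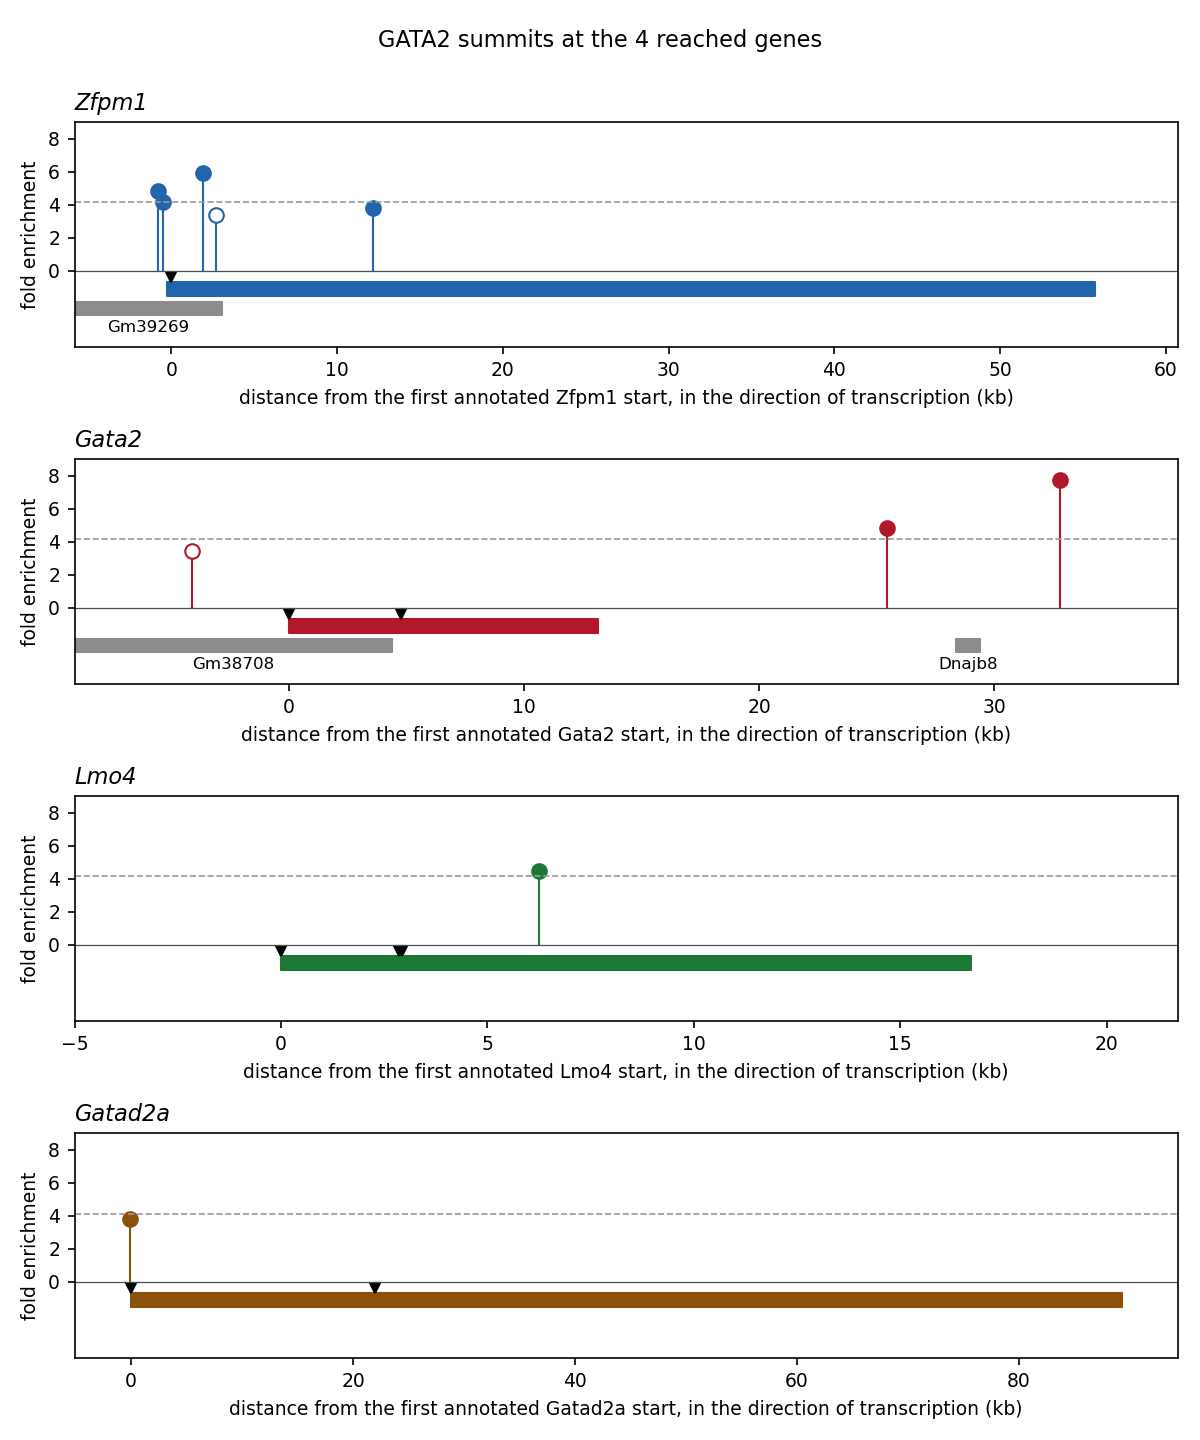
Summits at Zfpm1, Gata2, Lmo4 and Gatad2a. The horizontal axis is the distance in kb from the first annotated start in the direction of transcription, and the vertical axis the fold enrichment. Filled points have a q of at most 0.05 and open points do not, the dashed line is the median fold of the list (4.15), coloured bars are gene bodies, black triangles are annotated starts and grey bars are other genes, cut at the left edge where they run further. Zfpm1 has 5 summits around its start and first 12.2 kb, while the Gata2 summits lie on both sides of the gene and none inside it.

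Zfpm1, which encodes FOG1, the founding cofactor of GATA1, had the most summits of the 10 genes, 5 in 3 intervals spread over 13.0 kb of chromosome 8. The gene body runs from 122281856 to 122337862, and the start used below, at 122282141, is the one with an annotated window. The first interval (chr8:122281103-122281992) covered the upstream edge of the gene and was 890 bp wide, against a median of 332 bp for the list. It held a summit at 122281316, 825 bp before the start and 540 bp outside the gene body, with 11 fragments, a fold of 4.86 and a −log10 q of 3.37. Its other summit, at 122281659, lay 482 bp before the start and 197 bp outside the body, with 9 fragments, a fold of 4.15 and a −log10 q of 1.75. Both stood on the genome-wide control background.

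The second Zfpm1 interval (chr8:122283939-122285028) lay inside the gene and was 1090 bp wide. Only 13 of the 945 intervals (1.38%) were as wide or wider. Its summit at 122284086, 1.95 kb after the start, was the strongest of the gene, with 15 fragments, a fold of 5.94 and a −log10 q of 3.57. The summit 750 bp further on, at 122284836, had 10 fragments, a fold of 3.40 and a −log10 q of 0, and its −log10 p of 3.09 equalled the lowest in the list. That summit had 1 fragment more than the one at 122281659 and a lower fold, over a control background 6.67 times the genome-wide level. At 122284086 the control background was 2.00 times that level. In absolute terms these backgrounds were small, 0.406 and 0.122 fragments per position against 0.0608 genome-wide. They are on a scale where 1 GATA2 fragment counts as 0.378. No counting interval was computed for the control, so the size of these ratios is uncertain.

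The last Zfpm1 interval (chr8:122294239-122294442) was 204 bp wide and its summit, 12.2 kb after the start, had a fold of 3.79 on 8 fragments with a −log10 q of 1.75. No summit lay in the remaining part of the gene. In all, 3 of the 5 summits lay inside the gene body. A gene body with 3 or more summits was found for 6 protein-coding genes (0.0277%): Prdm1 with 6, Dnah2 with 4, and Zfpm1, Foxk1, Eif2ak3 and Peg3 with 3 each. Counting 5 or more summits inside or within 100 kb, Zfpm1 was 1 of 17 genes (0.0786%). Summits that share an interval are not independent, and counted by interval Zfpm1 met neither limit, with 2 intervals whose summits lay inside the gene and 3 inside or within 100 kb. By interval, 3 genes (0.0139%) had 3 or more inside the body, and 3 genes (0.0139%) had 5 or more inside or within 100 kb. At the values of Zfpm1, 29 genes (0.134%) had 2 or more intervals inside and 185 genes (0.855%) had 3 or more inside or within 100 kb. Prdm1 is a gene whose regulatory DNA the reporter carries.

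Of the 5 Zfpm1 summits, 4 also lay inside Gm39269, a long noncoding RNA gene of 11.3 kb on the other strand. Its starts at 122281717 and 122285174 flank the second interval. The summit at 122281659 was 58 bp and the summit at 122281316 was 401 bp past the first of these starts, both closer than to the Zfpm1 start. The summit at 122284836 was 338 bp past the second. The starts of Zfpm1 and Gm39269 at the first interval were 424 bp apart and face away from each other, so this interval cannot be assigned to Zfpm1 alone.

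Gata2, the gene of the profiled factor, had 3 summits within 100 kb and none inside its 13.1 kb body (chromosome 6, 88193891 to 88207032). They lay in 3 intervals spread over 36.9 kb. The upstream summit, at 88189799 (chr6:88189745-88190038), was 4.09 kb before the first annotated start and 8.87 kb before the second, with 7 fragments, a fold of 3.44 and a −log10 q of 0.30, which misses a q of 0.05. It was the only summit for which Gata2 was the nearest protein-coding gene, and it lay inside the noncoding gene Gm38708, which is transcribed from the opposite strand.

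Both Gata2 summits beyond the 3′ end of the gene had a higher fold than the upstream one but lay nearer to Dnajb8, which encodes a DNAJ family chaperone. The summit at 88219335 (chr6:88219187-88219438) was 12.3 kb past the end of Gata2 and 2.93 kb before the Dnajb8 start, with 11 fragments, a fold of 4.86 and a −log10 q of 3.37. The summit at 88226685 (chr6:88226262-88226941) was 19.7 kb past the end of Gata2 and 3.43 kb past the end of Dnajb8. Its fold of 7.74 on 22 fragments, with a −log10 q of 6.85, was the highest of the 10 summits, and 71 summits of the list (7.14%) had a higher fold. Its control background was 3.34 times the genome-wide level and its interval, at 680 bp, the widest of the 3. That background was 0.203 fragments per position on the same scale as those at Zfpm1, again with no counting interval. The list does not tie a distal summit to a target gene, and under the nearest-gene rule the summit on 7 fragments alone counts for Gata2. That summit's 95% Poisson interval was 2.81 to 14.4 fragments. The interval of the summit at 88219335 was 5.49 to 19.7, and that of the strongest was 13.8 to 33.3. The interval of the summit on 7 fragments overlapped the former widely and the latter slightly. Overlap does not show that the counts are alike, and the differences were not tested.

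**Figure D2:**
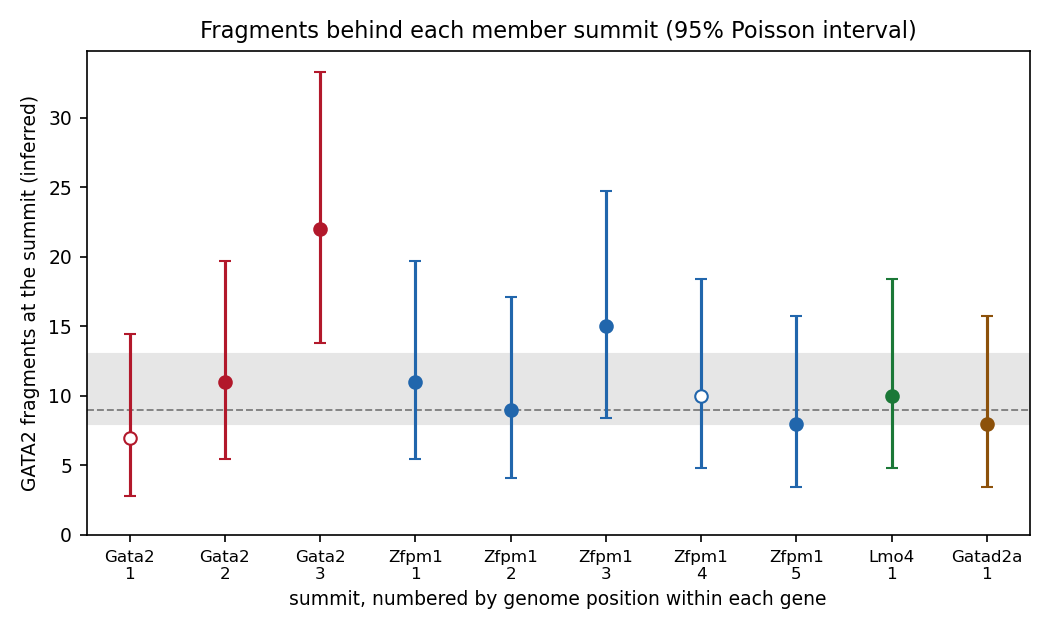
GATA2 fragments at each of the 10 summits, as inferred from the deposited fold and p, with the 95% Poisson interval as bars. Filled points have a q of at most 0.05, the dashed line is the median of all summits (9 fragments) and the grey band their quartiles (8 and 13). The strongest Gata2 summit, on 22 fragments, is the only point whose interval lies wholly above the median, at 13.8 to 33.3.

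Lmo4, whose LIM-only product binds LDB proteins and other nuclear factors, had a single summit inside its 16.7 kb body on chromosome 3. The summit at 144199004 (chr3:144198797-144199111, 315 bp wide) had 10 fragments, a fold of 4.50 and a −log10 q of 1.75. It lay 6.25 kb past the first annotated start of the gene, which is on the minus strand, and 3.33 kb past the last. No other protein-coding gene lay within 100 kb of Lmo4, so no nearer gene competed for the summit. The 3 annotated Lmo4 start windows held none of the GATA words and overlapped no interval.

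Gatad2a, which encodes a subunit linking the MBD and CHD proteins of NuRD, had a single summit at its first start. The summit at 69996466 (chr8:69996404-69996706, 303 bp wide) lay 82 bp before that start and 64 bp outside the gene body, with 8 fragments, a fold of 3.79 and a −log10 q of 1.75. It was the only member summit inside a start window, the one printed above with TGATAA. The second annotated start, 22.1 kb away along the gene, had no summit. Its paralog Gatad2b, which encodes the alternative subunit at the same place in NuRD, had none within 100 kb, and the nearest lay 2.15 Mb away and was nearest to Mef2d.

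The other 5 members without a summit within 100 kb included 4 of the 5 GATA factor genes. Gata1, the erythroid factor gene, was just outside the window, with a summit at 118.0 kb that lay inside Otud5 (6.64-fold, 16 fragments, −log10 q 7.02). The farthest summit inside the window was the one at 19.7 kb from Gata2, so the 100 kb limit fell in a gap between 19.7 and 118.0 kb. For Gata6, a regulator of endoderm and of gonadal somatic cells, the nearest summit lay 590.7 kb away, and for Gata4, needed for the genital ridge, 1378.2 kb away. Gata3, known from T cells and trophoblast, was 3.60 Mb from the nearest summit. Zfpm2, which encodes FOG2, the partner of GATA4 in heart and gonad, was farthest at 10.3 Mb, although its body of 449.6 kb was the longest of the 10. Of all protein-coding genes, 98.9% had a summit closer than Zfpm2 did, 88.6% closer than Gata3 and 16.5% closer than Gata1. The median distance over all protein-coding genes was 707.3 kb. A list cut at a p-value with a median of 9 fragments does not show weaker occupancy, so no summit means none detected at this depth.

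**Figure D3:**
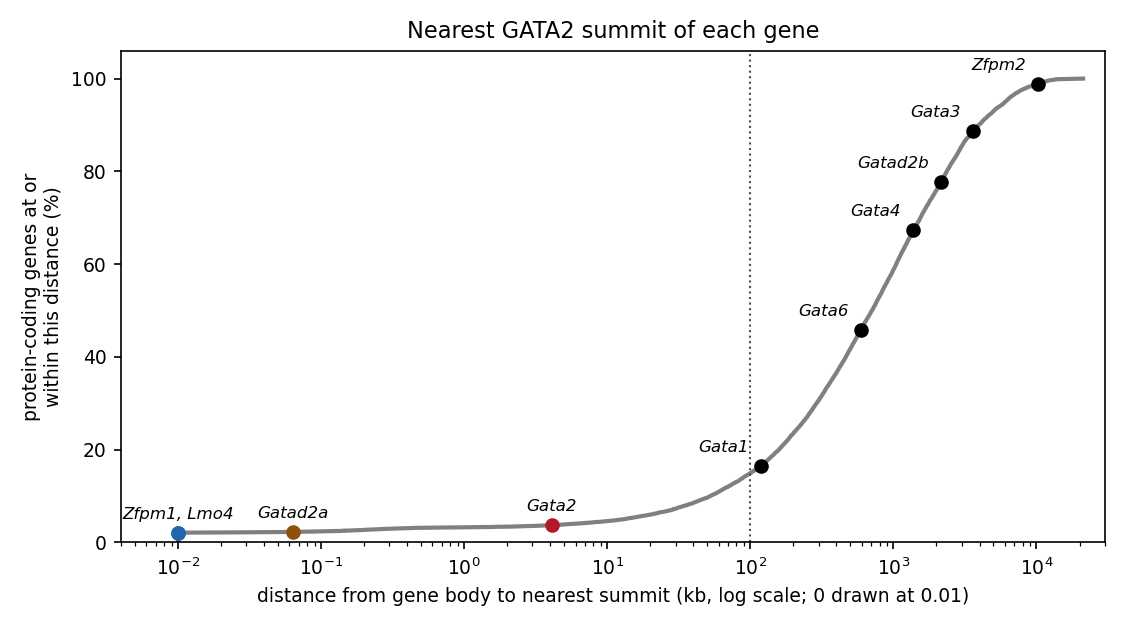
Distance from each protein-coding gene body to its nearest summit. The grey curve gives the share of the 21631 genes at or within each distance (log scale in kb, with distance 0 drawn near the left edge), points are the 10 members and the dotted line marks 100 kb. The 4 reached members sit at 4.09 kb or less, and the other 6 from 118.0 kb (Gata1) to 10.3 Mb (Zfpm2).

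In strength the 10 summits spread across the list. Their median fold was 4.33 (95% interval from order statistics 3.44 to 5.94) beside 4.15 for all 995 summits, with 5 above that list median, 1 at it and 4 below. Their folds ran from 3.40 to 7.74, while the list ran from 2.12 to 19.1. By position, 4 of the 10 lay inside a protein-coding gene body, against 49.7% of the list, and 3 lay within 1 kb of a protein-coding start, against 35.9% of the 963 summits on chromosomes with annotated start windows. Inside a long noncoding RNA gene lay 5, 1 at Gata2 and 4 at Zfpm1, against 13.8% of the list. An interval with several summits held 4, all at Zfpm1, against 9.05% of the list. The control background was more than 1% above the genome-wide level at 3 of the 10 (at Gata2 1 and at Zfpm1 2), against 29.9% of the list, and its part in the result was not tested beyond the removal of those summits given below. Summits of 1 gene share their surroundings, so these shares describe 4 loci rather than 10 independent sites. The interval of the median treats the 10 summits as independent, so it does not measure the spread between genes.

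**Figure D4:**
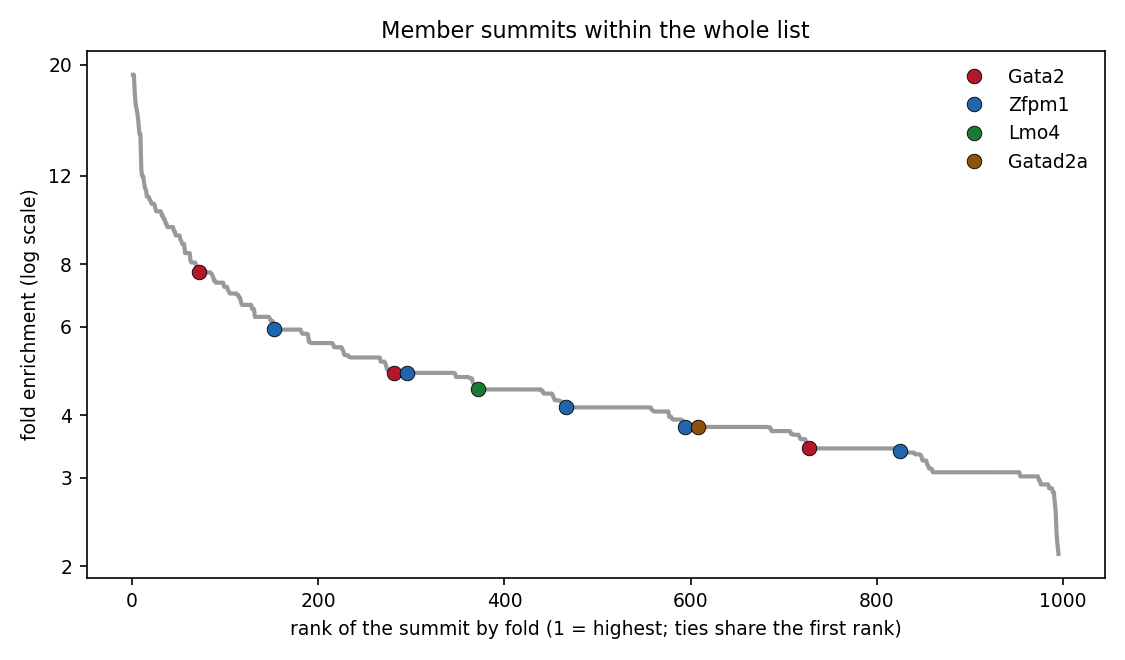
Fold enrichment of all 995 summits in order of rank (grey line, log scale), with the 10 summits of Zfpm1, Gata2, Lmo4 and Gatad2a as points, shifted slightly to the right where points coincide. The highest point, at Gata2, has rank 72, and the lowest, at Zfpm1, rank 825.

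Genes that work with these factors were looked up in lists of known partners, and each count is to be read beside the shares over all protein-coding genes, 14.9% reached, 10.2% reached at a q of at most 0.05 and 3.86% nearest. Of 8 other genes with GATA-type zinc fingers, 4 had a summit within 100 kb and 2 kept one at a q of at most 0.05, since the summits near Rere (−log10 q 0.30) and Mta2 (−log10 q 0.23) missed it. Only Mta1, a NuRD subunit gene, was the nearest gene to its summit (inside the gene, 4.86-fold on 11 fragments, −log10 q 3.37). Of 13 NuRD subunit genes other than the GATAD2 pair, 6 had a summit within 100 kb and 4 had one at a q of at most 0.05, with Mta2 again and Cdk2ap1 (−log10 q 0.30) dropping out. The nearest-gene rule left Mta1 and Mbd3. The Mbd3 summit lay 101 bp outside the gene (6.28-fold on 15 fragments, −log10 q 5.20). MBD3 is a methyl-CpG-binding-domain subunit of NuRD.

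Of 18 LMO, LDB, bHLH and other haematopoietic partners, 3 (16.7%) were reached, near the 14.9% of all protein-coding genes, and 2 (Tcf3 and Lmo1) were nearest, against 3.86%. Tcf3, which encodes the E proteins that pair with TAL1 in GATA complexes, had a summit inside the gene with a fold of 15.9 on 42 fragments (−log10 q 26.0), higher than any at the 10 genes. Lmo1 had one inside the gene (4.29-fold on 11 fragments, −log10 q 1.44). Of 4 corepressor and other FOG partner genes 1 was reached: Ctbp2, encoding a corepressor that FOG proteins recruit, had a summit inside the gene (6.86-fold on 17 fragments, −log10 q 6.35). Of 12 gonadal genes known as GATA4 and FOG2 targets, 11 were on chromosomes with a summit, 2 (18.2%) were reached, and Sox9 alone was nearest, to a summit 83.0 kb away (5.57-fold on 13 fragments). These shares come from a few genes each, and nothing is read from their distance to the background.

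Among marker genes of the cells a sort could hold, 3 of 8 germ cell genes were reached (Prdm1, Dppa3 and Pou5f1). The only Pou5f1 summit had 6 fragments and a −log10 q of 0.30, so 2 remained at a q of at most 0.05, Prdm1 and Dppa3, and these are the genes whose regulatory DNA the reporters carry. Of 8 somatic gonad genes, Amhr2 was reached, though other genes were nearer to its summits, and Gata4 and Gata6 are in that list with none. Of 8 blood genes 2 were reached, Gata2 and Spi1, and of 6 endothelial genes only Gata2. The Spi1 summit was 79.5 kb away and inside Nr1h3, and Gata2 was nearest only to its summit that missed a q of 0.05. Beside the 14.9% of all protein-coding genes that were reached, or 10.2% at a q of at most 0.05, these counts are a description of short lists with no test.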

How the data were processed

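CUT&Tag libraries of 4 samples (2 anti-GATA2, 2 input) are represented by 1 deposited peak list on GRCm38 (mm10). Per the submitters' processing notes, the tools were MACS2 2.2.6, Bowtie2 2.3.5.1, bedtools 2.29.2, Trimmomatic 0.39, Picard 2.23.0 and SAMtools. Parameters, roles, the control and the pooling are not stated there, and the peak names were read as a combination of both anti-GATA2 libraries. The deposited fold enrichment was taken as a ratio of scaled signal to local background at the summit, with 1 added to each. With a background far below 1 it mostly follows the fragment number and is smaller than the plain ratio. The −log10 values of p and q and a display score (10 times −log10 p, whole part) were deposited for the same summits. All were used to describe and rank summits within the list.

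Depth was not stated. Fold and p of all 995 summits could be solved as whole fragments (within 0.000136, with 0.05 allowed) under MACS2's formulas, with 1 added to signal and background, a scale of 0.378 and a genome-wide control background of 0.0608 fragments per position, both estimated from the list. The step was tested on data simulated with the same formulas, and all 995 simulated summits were recovered. This checks the solving only, and cannot show that the deposited values were made in this way. Poisson intervals (95%) cover counting error only, and PCR copies would count as fragments.

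Positions are 1-based, and gene bodies, starts and start windows came from RefSeq tables of GRCm38.p6. Distances were taken to the gene body (0 inside). No genome sequence was used here, so the planned search for GATA words around summits was replaced by a search of start windows. The members and lists were chosen with earlier results of these data known. All 10 members are named with every summit, and beside them genes nearer to a summit, genes with as many summits inside, and partner genes nearest to a summit. No test between groups or lists was made. Calculations used Python 3.11.15, numpy 2.4.6, pandas 2.3.3, scipy 1.17.1 and matplotlib 3.10.9.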

Additional observations from a re-analysis of the deposited data

How the results depend on the processing

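The count of reached members stayed at 4 with windows of 50 and 10 kb, a q of at most 0.05, 1 summit per interval, start sites in place of gene bodies, and without the summits of raised control background (chosen after seeing the data), and was 5 at 200 kb, where Gata1 joined. The start-site setting could not have added Gata4, Gata6 or Zfpm2, which had no annotated start window. At a −log10 q of at least 5 it was 1 (Gata2), with 1 summit, a median fold of 7.74 and 0 members nearest, since that summit lies nearer to Dnajb8. With a q of at most 0.05, or with all annotated genes competing, Gata2 was no longer nearest to any summit and 3 members remained so. Of 36 alternative values, 30 stayed within 1.5 times the count or the interval of the median. Some could not move: no summit lay between 19.7 and 118.0 kb from a member, so the 50 kb window had to repeat the values. A fall from 4 to 3 members nearest also counted as unchanged under this ratio. The interval of the median treats the 10 summits as independent, so it is a loose yardstick only. Counted by interval (also chosen after seeing the data), the genes with 5 or more inside or within 100 kb fell from 17 to 3 and those with 3 or more inside from 6 to 3, in both cases without Zfpm1. The number of summits ran from 7 to 11 outside the strictest threshold. No paired analysis was possible because the list holds no value per replicate, and leaving out a replicate could not be run for the same reason. The planned search for words around summits was not run. At 7 to 22 fragments per summit, differences of a few fragments are within counting error.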
